A study of Drosophila melanogaster with 16 samples.

Results

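Body-wall muscle of larvae with ras1 G12V;csk-/- eye tumours, taken at the early stage of a high-sugar diet (HSD Early, 4 libraries), was compared with muscle of the same genotype on the control diet (CD, 4 libraries). These 8 of the 16 libraries of the series were taken by their labels alone, and all 11607 genes that passed the filter on low counts were described, out of 15682 genes counted. Early animals were raised with 1 M sucrose and dissected at day 12 after egg laying by the labels, and CD animals with 0.15 M sucrose and dissected at day 8. The study's methods give an earlier day for the early stage in muscle staining, and the day of the labels is used here. In both groups activated ras1 was expressed, and csk was lost, in GFP-labelled clones of the eye epithelium made with an eyeless-driven recombinase, so that the muscle itself was not the targeted tissue and its counts check neither allele. Larvae in HSD take longer to reach the third instar, and every Early library differs from every CD library in sucrose and in age. The study also reports benign tumours on CD and aggressive tumour growth in HSD for this genotype, and the series has no tumour-free muscle. Diet, age, developmental delay and tumour growth therefore cannot be told apart. Each library came from pooled dissected tissue. The study states in general terms that experiments had biological replicates and were repeated, but the labels do not say whether the pools behind these libraries came from separate cultures, so p-values measure the spread between these libraries.

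Larval body-wall muscle fibres are large multinucleate cells whose myosin and actin filaments, calcium stores and mitochondria are built up through the larval stages. Muscle that loses mass in insects and vertebrates typically breaks down its proteins through the ubiquitin-proteasome system, in which the core particle degrades proteins that a regulatory particle of Rpt and Rpn subunits unfolds and feeds in, and through autophagy. The body wall also carries the epidermis, which secretes the chitin-based cuticle and renews it with each moult under the control of ecdysone.

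The libraries held between 9666672 (CD 3) and 28698585 counts over the whole series, and the 20 most abundant genes took 18.93 to 27.11% of the counts at HSD Early and 16.43 to 19.46% on CD. Muscle markers were present in all 8 libraries. The summed level of the thick filament list was 29744 to 88548 counts per 1000000 (CPM) at HSD Early and 9064 to 26130 CPM on CD, and all 5 of its tested members were detected. Transcripts of other larval tissues were present as well. Storage proteins of the fat body summed to 8182 to 11593 CPM at HSD Early and 12366 to 22735 CPM on CD, without overlap. Neuronal and glial markers summed to 73.2 to 115 CPM at HSD Early and 88.5 to 145 CPM on CD, and haemocyte markers to 1413 to 2504 CPM at HSD Early and 1279 to 4365 CPM on CD. Testis markers ranged from 17.5 to 1580 CPM at HSD Early and 215 to 925 CPM on CD, and salivary glue genes from 0.665 to 1657 CPM at HSD Early and 43.2 to 125 CPM on CD, both with high values in Early 2 and Early 4 and low values in Early 1 and Early 3. The roX1 RNA of the dosage compensation complex was at 17.1, 937, 847 and 813 CPM at HSD Early, against 847, 944, 383 and 124 CPM on CD, so Early 1 stood apart from the other Early libraries and CD 4 was the lowest on CD. In such bulk samples, fewer cells of a type and less RNA per cell cannot be told apart. The part of these differences in the results below was not tested except where values without a library are given.

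At HSD Early 1061 genes passed edgeR's quasi-likelihood test at an adjusted p under 0.05, which is 9.14% of the genes tested. Of these, 748 (6.44%) were higher and 313 (2.70%) lower than on CD, so that 70.5% of the calls were rises, against a median log2 fold change of −0.01 over all genes. Groups of 4 that did not overlap were found for 14.5% of genes, with all Early libraries above all CD libraries for 9.16% and all below for 5.38%.

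Each called gene was then placed by rules on how its call depended on single libraries. A gene was termed held when it passed in the full comparison and again without each of the 4 Early libraries in turn, in the same direction, and when its Early and CD libraries did not overlap. A gene was said to rest on 1 library when that library carried over 50% of the summed CPM of the higher group and the call was lost without it. By these rules 265 genes (2.28% of those tested and 25% of the calls) were held, 176 of them higher (1.52%) and 89 lower (0.767%). Another 49 genes (4.62% of the calls) rested on 1 library, and the remaining 747 (70.4%) lay in between. The held rises had a median log2 fold change of 1.80 and the held falls of −1.02, while genes that rested on 1 library had medians of 4.24 and −4.42. The rules sort genes by how even their libraries are, so this difference in medians follows in part from the rules. With 1 library fewer the test has less power, so a lost call is a description and not evidence of no difference.

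**Figure D1:**
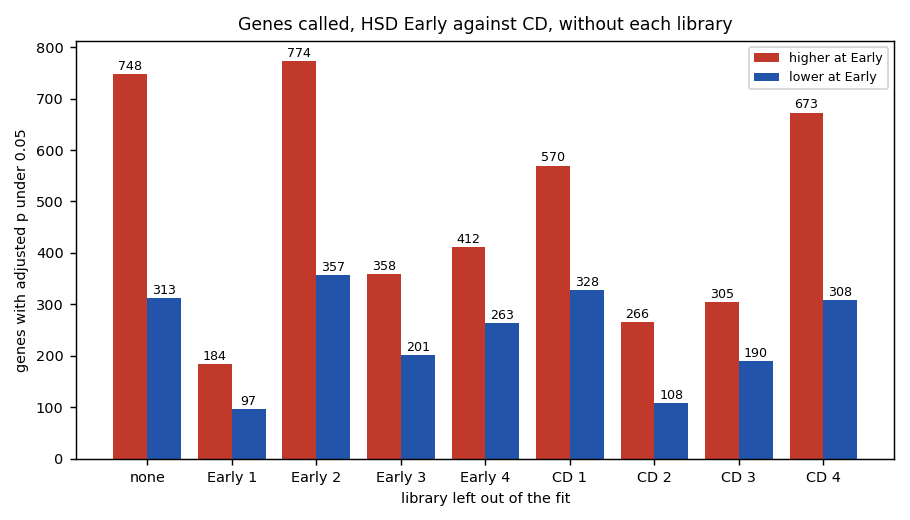
Genes with an adjusted p under 0.05 that were higher (red) or lower (blue) at HSD Early than on CD, in the fit with all libraries and in 8 fits that each leave out the library named on the x axis. Without Early 1 the bars fall to 184 and 97 genes, and without Early 2 they stand at 774 and 357.

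The count of calls depended most on Early 1. Without it 281 genes (2.42%) passed, 184 higher and 97 lower, and 275 of these were among the 1061. Without Early 2, 1131 genes passed, without Early 3, 559, and without Early 4, 675. Among the 171 genes that lost their call in exactly 1 of these 4 fits, the loss came without Early 1 for 165. Of the 49 genes that rested on 1 library, 25 rested on Early 1, 5 on Early 2, 2 on Early 3, 9 on CD 3, 6 on CD 4 and 2 on CD 2. The CD libraries mattered too. Without 1 of them between 374 (CD 2) and 981 (CD 4) genes passed, and 251 of the 265 held genes passed in all 4 of those fits. When the held rule itself was applied with 3 CD libraries, between 36 genes (without CD 2) and 357 genes (without CD 4) met it. A fit to the 8 libraries alone, with fewer libraries to estimate the spread, called 445 genes, of which 222 were among the 265 held. DESeq2 called 1893, of which 263 were among them. When the held rule itself was applied, it was met by 1 gene in the fit to the 8 libraries and by 872 genes with DESeq2. The number of held genes thus depended strongly on the test and on the libraries fitted.

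**Figure D2:**
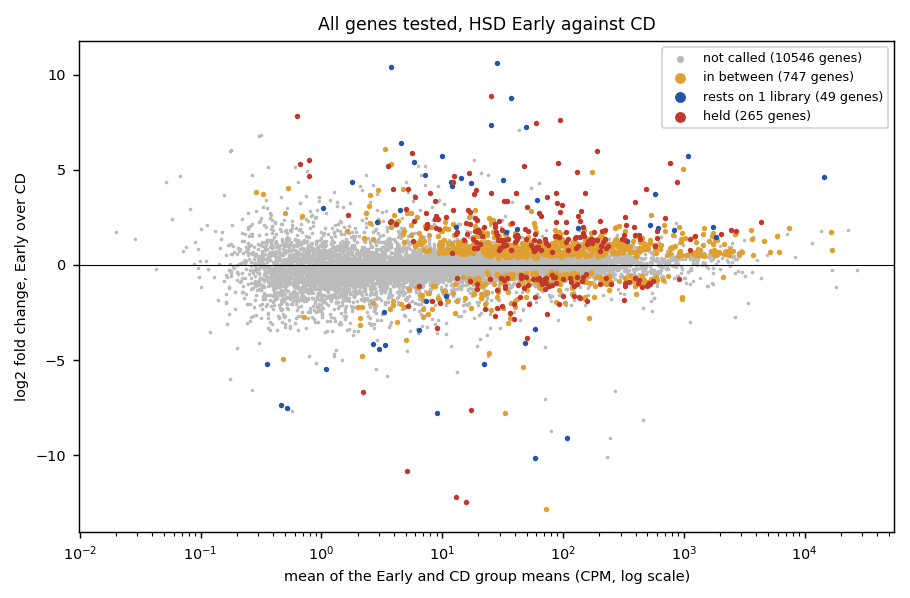
Log2 fold change of HSD Early over CD (y axis) against the mean of both group means in CPM (x axis, log scale) for all 11607 genes tested, 1 point per gene, coloured by whether the call was held (265), in between (747), rested on 1 library (49) or was not made. Genes that rest on 1 library have medians of 4.24 and −4.42, against 1.80 and −1.02 for held genes, a difference that follows in part from the rules for the classes.

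Most subunits of the proteasome fell at HSD Early. Of 47 genes in the list 27 passed (57.4%, against 9.14% of all genes), all of them lower, with a median log2 fold change of −0.78 over the list, and 7 were held. The 27 were all among the 32 usual subunits, and in each of these 32 every Early library was below every CD library (5.38% of all genes), with log2 fold changes between −1.06 and −0.53. The other 15 members, paralogues whose names carry a T or an R, gave no call. By particle, 9 of 14 core subunits, 6 of 6 Rpt ATPases and 12 of 12 Rpn subunits passed, with medians of −0.72, −0.99 and −0.89.

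Rpn6, a lid subunit of the regulatory particle, was measured at 250, 402, 361 and 389 CPM at HSD Early, against 632, 833, 741 and 550 CPM on CD. The groups did not overlap, and Early 1 was the lowest of the 8 libraries. Its level was 1.96-fold lower at HSD Early (log2 fold change −0.97 ± 0.20 (SE), adjusted p = 0.00991), with adjusted p values up to 0.034 without 1 Early library. Rpt1, an ATPase of the base, was at 248, 411, 364 and 383 CPM at HSD Early, against 604, 793, 810 and 582 CPM on CD (log2 fold change −0.99 ± 0.20 (SE), adjusted p = 0.00978). Prosbeta7, a core subunit, was at 311, 473, 393 and 428 CPM at HSD Early, against 618, 739, 820 and 663 CPM on CD (log2 fold change −0.82 ± 0.17 (SE), adjusted p = 0.0115). The ubiquitin receptor Rpn13 averaged 247 ± 36 CPM at HSD Early, against 454 ± 41.4 CPM on CD (SD, n = 4 each), and fell by 0.88 on the log2 scale. In all 4 of these genes Early 1 was lowest, and the lowest CD library was CD 1 or CD 4. Without Early 1, 7 of the 32 usual subunits passed, and over the list 12 passed without Early 3, 7 without CD 2 and 9 without CD 3. A fit to the 8 libraries alone also called 7 proteasome genes, and DESeq2 called 33, all lower. The summed muscle markers, higher at HSD Early, and the fat body storage proteins, lower at HSD Early, differed between the same groups, and their part in the proteasome result was not tested.

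Autophagy and apoptosis genes also gave calls. Of 21 autophagy genes 5 (23.8%) passed, all lower, with a median of −0.27. Atg3, the conjugating enzyme for Atg8, was at 46.2, 47.1, 55.7 and 42.6 CPM at HSD Early, against 71.2, 72.3, 95.9 and 71.5 CPM on CD, and was 1.62-fold lower (log2 fold change −0.70 ± 0.13 (SE), adjusted p = 0.00737). Atg4a, the protease that trims Atg8, was at 89.7, 112, 111 and 101 CPM at HSD Early, against 148, 158, 157 and 169 CPM on CD (log2 fold change −0.61 ± 0.11 (SE), adjusted p = 0.00682). Both were held, and the Early values of each lay within a narrow range below CD. Atg7 and Atg2 also fell, with adjusted p values of 0.0313 and 0.029, but neither was held. Of 8 apoptosis genes 3 fell and 1 rose (50% called), and 1 passed in each of the fits without Early 1, Early 4, CD 2 or CD 3. The initiator caspase Dronc was held at 43, 47.7, 41.8 and 48.3 CPM at HSD Early, against 63.1, 84.9, 79.9 and 132 CPM on CD. It was 1.99-fold lower at HSD Early (log2 fold change −0.99 ± 0.18 (SE), adjusted p = 0.00737). Its activator Dark (log2 fold change −0.96) and the effector caspase Drice (−0.47) fell without being held, and the TNF ligand egr rose (0.68). Of 24 chaperones and heat shock genes 2 fell and 1 rose, a share of 12.5% that is close to the 9.14% over all genes, and the co-chaperone DnaJ-1 was held, at 68.3 to 84.4 CPM at HSD Early, against 99.5 to 166 CPM on CD (log2 fold change −0.74 ± 0.16 (SE), adjusted p = 0.0115).

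In the tricarboxylic acid (TCA) cycle and reactions that feed it or draw on it, 10 of 19 genes (52.6%) passed, all higher. The median log2 fold change was 1.03, and 6 were held. The 6 were mAcon1, Idh3a, Idh3b, SdhA, Mdh2 and Pepck1. Mdh2, mitochondrial malate dehydrogenase, was at 908, 410, 481 and 571 CPM at HSD Early, against 185, 140, 180 and 294 CPM on CD. Every Early library was above every CD library, Early 1 the furthest. The level was 2.97-fold higher (log2 fold change 1.57 ± 0.29 (SE), adjusted p = 0.00777). Idh3a and Idh3b, subunits of the NAD-dependent isocitrate dehydrogenase, were at 338 to 629 CPM at HSD Early, against 135 to 227 CPM on CD (log2 fold change 1.34, adjusted p = 0.00659) and at 195 to 423 CPM at HSD Early, against 92.3 to 142 CPM on CD (log2 fold change 1.30, adjusted p = 0.00659). SdhA, the flavoprotein of succinate dehydrogenase, was at 466, 243, 321 and 270 CPM at HSD Early, against 144, 114, 95.5 and 144 CPM on CD (log2 fold change 1.39 ± 0.21 (SE), adjusted p = 0.00449). Of the 19 genes 6 passed without Early 1, CD 2 or CD 3, each left out in turn, and 6 in the fit to the 8 libraries alone.

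In the respiratory chain and ATP synthase, 32 of 81 genes (39.5%) passed, all higher, with a median of 0.80 and 7 held. The list contained 19 paralogues whose names end in L, which gave no call and had a median of −0.45. The other 62 all had positive log2 fold changes, from 0.34 to 1.82, and in 29 of them every Early library was above every CD library, as in 9.16% of all genes. Cyt-c1, a catalytic subunit of complex III, was held at 619, 215, 257 and 294 CPM at HSD Early, against 79.3, 78.6, 86.9 and 147 CPM on CD (log2 fold change 1.82 ± 0.31 (SE), adjusted p = 0.00608). ATPsynC, the ring subunit of the ATP synthase, was at 3041, 1264, 1359 and 1741 CPM at HSD Early, against 627, 525, 529 and 893 CPM on CD. Early 1 was again the highest library and the groups did not overlap (log2 fold change 1.52 ± 0.28 (SE), adjusted p = 0.00801). ND-23 of complex I was at 116, 63.2, 61 and 82.4 CPM at HSD Early, against 38.7, 40.7, 42.1 and 43.6 CPM on CD (log2 fold change 0.96 ± 0.17 (SE), adjusted p = 0.00705). Of the 81 genes 7 passed without Early 1, 15 without Early 4, 17 without CD 1, 9 without CD 2 and 13 without CD 3, and 4 passed in the fit to the 8 libraries alone.

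Calls among glycolysis and glycogen genes were all rises. Of 14 glycolytic genes 9 (64.3%) passed, all higher, with a median of 1.37. Gpdh1 and Pfrx were the only 2 held, and neither catalyses a step of the main pathway itself. Ldh and Gapdh2 rested on Early 1. Of the 14 genes 2 passed without Early 1, CD 2 or CD 3, each left out in turn, and 2 in the fit to the 8 libraries alone. Gpdh1, which makes glycerol 3-phosphate from a glycolytic intermediate, was at 964, 300, 415 and 474 CPM at HSD Early, against 128, 110, 95.2 and 177 CPM on CD, and was 4.22-fold higher (log2 fold change 2.08 ± 0.36 (SE), adjusted p = 0.00659). Pfrx, the enzyme that makes the activator of phosphofructokinase, was at 183, 126, 196 and 126 CPM at HSD Early, against 76.3, 62.7, 37.9 and 70.2 CPM on CD (log2 fold change 1.35 ± 0.23 (SE), adjusted p = 0.00659). Lactate dehydrogenase (Ldh) was at 2093, 371, 414 and 568 CPM at HSD Early, against 262, 125, 148 and 263 CPM on CD. Early 1 carried 60.7% of the summed Early level, and its adjusted p was 0.0188 with all libraries and 0.0758 without Early 1. All 4 tested glycogen genes rose, with a median of 1.55. The branching enzyme AGBE was at 353, 151, 217 and 170 CPM at HSD Early, against 77.5, 46.6, 71.2 and 82.2 CPM on CD (log2 fold change 1.69 ± 0.28 (SE), adjusted p = 0.00579) and the debranching enzyme CG9485 at 96.4 to 209 CPM at HSD Early, against 31.5 to 60.8 CPM on CD (log2 fold change 1.47 ± 0.28 (SE), adjusted p = 0.0083), and both were held. Glycogen phosphorylase (Glyp, log2 fold change 1.63) and UGP (0.83) rose without being held.

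**Figure D3:**
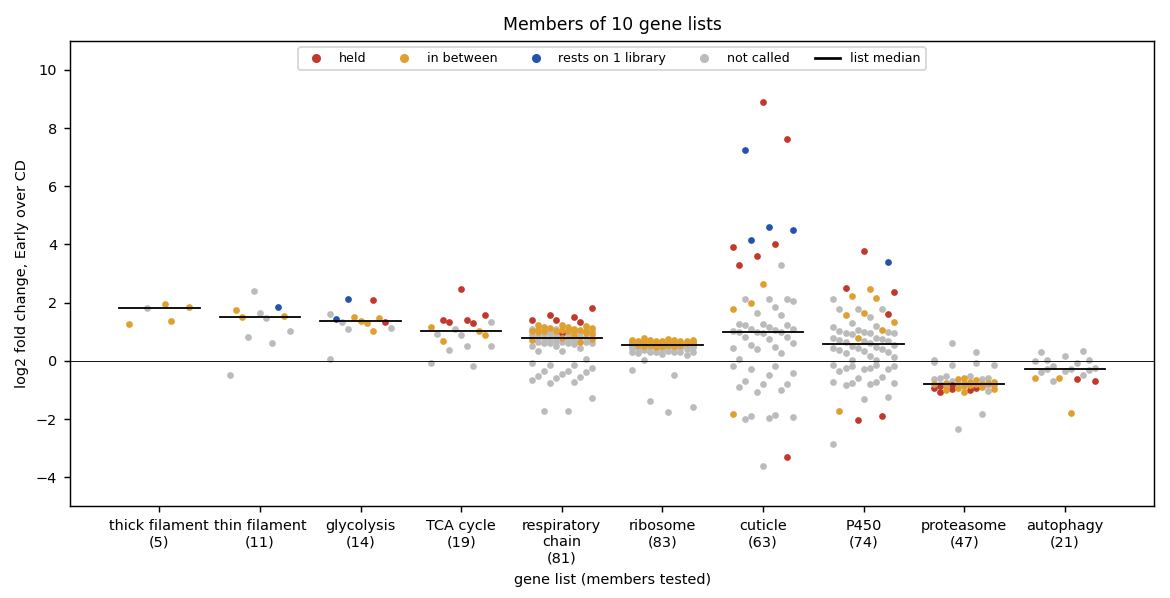
Log2 fold change of HSD Early over CD (y axis) for each tested member of 10 gene lists (x axis, number of members tested in brackets), coloured by whether the call was held, in between, rested on 1 library or was not made, with a black line at the list median. Medians run between 1.81 for the thick filament and −0.78 for the proteasome, and the thick filament, thin filament and ribosome lists contain no held gene.

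Some structural genes of the sarcomere rose at HSD Early, and their calls depended on several libraries. Of 25 genes of the thick filament, thin filament, Z-disc and M-line, 10 passed, all higher, with a median log2 fold change of 1.38. Over all genes 9.14% passed. No gene of the 25 passed without Early 1, Early 3, CD 2 or CD 3, each left out in turn, 1 passed without Early 4 and 2 without CD 1, while 16 passed without Early 2 and 17 without CD 4. The fit to the 8 libraries alone called 1, and DESeq2 called 17 higher and 1 lower. None of the 25 was held, and the smallest adjusted p without Early 1 was 0.0796. Myosin heavy chain (Mhc) was at 23144, 6174, 9428 and 8254 CPM at HSD Early, against 3412, 1354, 1760 and 5698 CPM on CD. All Early libraries were above all CD libraries, yet Early 2 at the low end and CD 4 at the high end were close. The log2 fold change was 1.94 ± 0.57 (SE), with an adjusted p of 0.046 with all libraries and of 0.191 without Early 1. The muscle actin Act57B was at 44610, 15118, 20412 and 22673 CPM at HSD Early, against 7707, 4891, 5989 and 11999 CPM on CD (log2 fold change 1.75 ± 0.49 (SE), adjusted p = 0.0379). The troponin C gene TpnC47D rested on Early 1, which held 50.1% of its summed Early level.

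Of 7 calcium handling genes 3 rose (42.9%, against 9.14% of all genes), and 2 of these were held. SERCA, the pump that returns calcium to the sarcoplasmic reticulum, was at 6270, 2296, 3399 and 3306 CPM at HSD Early, against 1267, 731, 658 and 1600 CPM on CD, and was 3.59-fold higher (log2 fold change 1.84 ± 0.37 (SE), adjusted p = 0.00967). RyR, the release channel, was at 343, 82.5, 179 and 94.5 CPM at HSD Early, against 52.9, 21.6, 20.8 and 53.1 CPM on CD (log2 fold change 2.24 ± 0.46 (SE), adjusted p = 0.0107). The exchanger Calx rose by 1.02 on the log2 scale and was not held. The median of the 7 genes was 0.55. The glutamate receptor subunit GluRIIC rose, 1 of 7 such receptors (14.3%). The integrin subunit if rose, 1 of 9 attachment genes (11.1%, close to the 9.14% over all genes). Of 8 tested myogenic factors and 10 actomyosin genes none passed, as given with the other lists without a call.

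**Figure D4:**
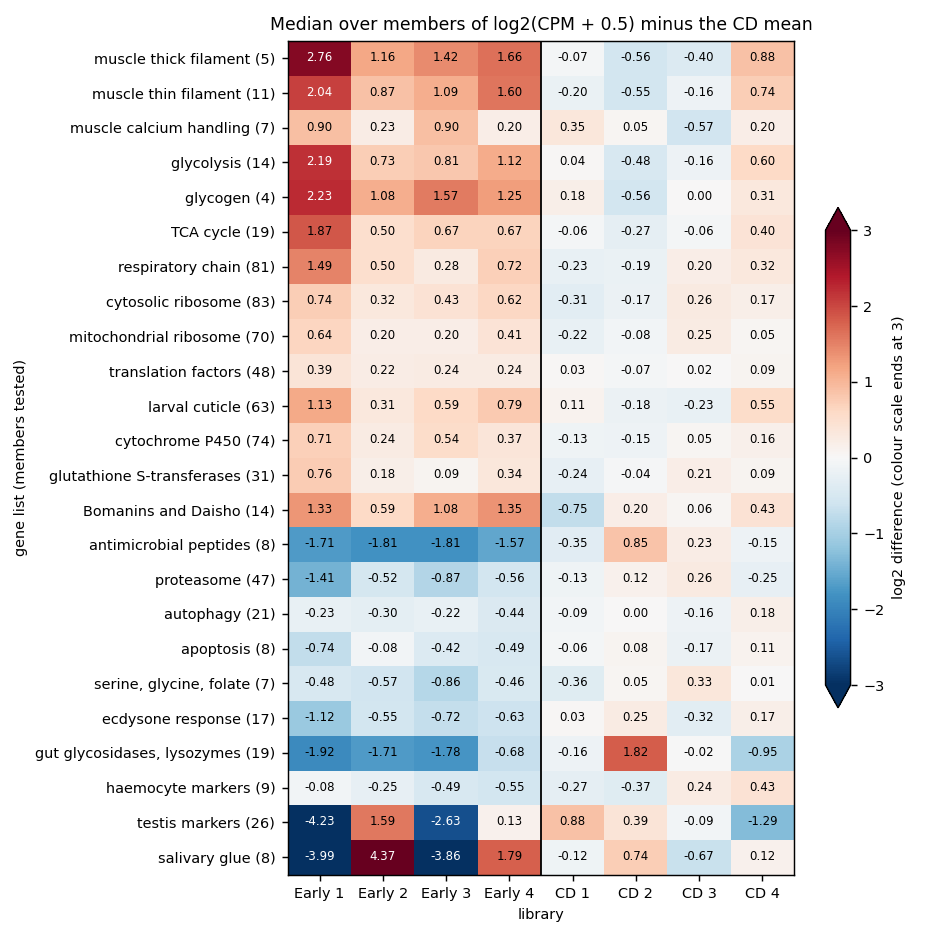
For 24 gene lists (y axis, members tested in brackets) and 8 libraries (x axis, HSD Early left of the line, CD right of it), the median difference over members in log2(CPM + 0.5) from each gene's average on CD, with the value printed in each cell. Early 1 has the highest value for the thick filament (2.76), glycolysis (2.19) and TCA cycle (1.87) and CD 4 the highest among CD libraries for the same lists (0.88, 0.60 and 0.40), while the antimicrobial peptides lie between −1.81 and −1.57 at HSD Early.

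Some translation genes rose, by small amounts. Of 83 cytosolic ribosomal protein genes 34 (41%) passed, all higher, with a median of 0.53, and in 37 of the 83 every Early library was above every CD library (9.16% of all genes). None was held, and the smallest adjusted p without Early 1 was 0.0703. None passed without Early 1 or Early 4 or in the fit to the 8 libraries alone, 3 passed without Early 3, 19 without CD 1, 9 without CD 2 and 16 without CD 3. With upper-quartile scaling 17 passed and with no filter on low counts 7, while DESeq2 called 54. The scaling factors of the libraries were 0.6291 to 0.9301 at HSD Early and 0.8773 to 1.085 on CD, and a smaller factor raises CPM. How far these small rises and the groups without overlap follow from the scaling was not tested beyond these counts. RpL35A was at 1279, 1015, 1106 and 1265 CPM at HSD Early, against 600, 593, 796 and 830 CPM on CD (log2 fold change 0.73 ± 0.15 (SE), adjusted p = 0.0102). RpL4 was at 3056, 2394, 3053 and 2874 CPM at HSD Early, against 1774, 1510, 1743 and 2109 CPM on CD, with a log2 fold change of 0.67. Among mitochondrial ribosomal proteins 9 of 70 rose (median 0.34), among translation initiation and elongation factors 12 of 48 (median 0.22), among aminoacyl-tRNA synthetases 3 of 30 (median 0.33) and among nucleolar genes 2 of 16 (median 0.15). These 4 lists had no call in the other direction and no held gene, and the shares called among mitochondrial ribosomal proteins (12.9%), nucleolar genes (12.5%) and synthetases (10%) were close to the 9.14% over all genes.

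Cuticle genes gave several of the largest held rises. Of 63 larval cuticle genes 13 rose and 2 fell (23.8% called), with a median of 1.00. The list contained 7 held genes and 4 that rested on 1 library. Lcp65Ag3 was at 583, 22.7, 38 and 109 CPM at HSD Early, against 0.658, 0.236, 0.578 and 2.44 CPM on CD. Its lowest Early value lay above its highest CD value, and Early 1 was far above the other Early libraries (log2 fold change 7.61 ± 1.20 (SE), adjusted p = 0.00485). Early 1 held 77.4% of its summed Early level, and without Early 1 its log2 fold change was 5.88. Lcp65Ab2 was at 40.5, 1.18, 145 and 17.4 CPM at HSD Early, against 0.253, 0.0943, 0 and 0 CPM on CD, with few counts on CD (log2 fold change 8.90 ± 1.64 (SE), adjusted p = 0.0155). The call for Lcp65Ab2 was lost without CD 2 (adjusted p = 0.0608) and without CD 3 (0.0523). Both have close copies in the Lcp65A cluster, and reads shared with these copies could have been split between them. Cpr47Ec was at 2022, 354, 407 and 894 CPM at HSD Early, against 78.1, 28.2, 33.8 and 89.6 CPM on CD (16-fold higher, adjusted p = 0.0102) and Cpr11A at 1410, 335, 570 and 555 CPM at HSD Early, against 81, 51.2, 46 and 113 CPM on CD (log2 fold change 3.30 ± 0.47 (SE), adjusted p = 0.00323). Cpr67Fb moved the other way, at 1.63, 1.84, 1.42 and 1.7 CPM at HSD Early, against 11.6, 6.98, 9.34 and 38 CPM on CD. It was 9.97-fold lower and held (log2 fold change −3.32 ± 0.70 (SE), adjusted p = 0.0115).

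Cpr47Eg, another cuticle gene, showed a rise carried by 1 library. It was at 382, 1.23, 1.23 and 7.34 CPM at HSD Early, against 1.01, 0.33, 0 and 1.08 CPM on CD. Early 1 held 97.5% of the summed Early level, and the adjusted p was 0.0213 with all libraries and 0.308 without Early 1. The summed cuticle level was 73740 to 181652 CPM at HSD Early and 47826 to 79008 CPM on CD, so the totals overlapped. Of 27 genes of chitin synthesis and binding 9 rose and 1 fell (37% called), and 3 were held. The held genes included mmy, which makes the sugar donor for chitin synthesis, at 792, 324, 424 and 393 CPM at HSD Early, against 142, 126, 158 and 217 CPM on CD (log2 fold change 1.59 ± 0.27 (SE), adjusted p = 0.00659). Cht6, a chitinase, was at 511, 201, 407 and 194 CPM at HSD Early, against 148, 81.7, 57.5 and 87.3 CPM on CD (log2 fold change 1.81 ± 0.37 (SE), adjusted p = 0.0115). The chitin deacetylases verm and serp rose by 1.66 and 1.58 on the log2 scale and were not held. Of 6 tanning genes none passed, 3 had an unadjusted p under 0.05 and DESeq2 called 2. One of these 6, ple, which encodes tyrosine hydroxylase, was at 4.41, 3.24, 3.3 and 2.1 CPM at HSD Early, against 7.94, 574, 91.1 and 2983 CPM on CD. Its level on CD differed widely between libraries, and the adjusted p was 0.0511.

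Of 13 genes of lipid synthesis 4 rose (30.8%, against 9.14% of all genes) and the other 9 did not pass. Of the 13, 1 passed in each of the fits without Early 1, Early 3 or CD 3, and 2 passed in each of those without Early 4 or CD 4 and in the fit to the 8 libraries alone. FASN2, a fatty acid synthase, was held at 325, 152, 331 and 111 CPM at HSD Early, against 60.4, 41.5, 16.4 and 64.9 CPM on CD, and was 5-fold higher (log2 fold change 2.32 ± 0.41 (SE), adjusted p = 0.00705). Desat1, the main fatty acid desaturase, was at 1101, 699, 915 and 802 CPM at HSD Early, against 412, 444, 390 and 425 CPM on CD. Its groups did not overlap, but its adjusted p of 0.0171 with all libraries became 0.0835 without Early 1, 0.0546 without Early 3 and 0.059 without CD 3. Among the genes with the largest held rises were sit and CG8534, both of the family of very long chain fatty acid elongases. sit was at 191, 32.4, 58.6 and 85.4 CPM at HSD Early, against 3.14, 1.75, 1.44 and 3.59 CPM on CD (log2 fold change 5.20 ± 0.69 (SE), adjusted p = 0.00264). CG8534 was at 42.7, 14.9, 27 and 44.4 CPM at HSD Early, against 1.47, 0.283, 0 and 2.71 CPM on CD (log2 fold change 4.83 ± 0.99 (SE), adjusted p = 0.0109). CG11437, of the phosphatidate phosphatase family, was at 15.8, 3.5, 16.9 and 7.73 CPM at HSD Early, against 0.202, 0.236, 0.193 and 0.0678 CPM on CD (log2 fold change 5.91 ± 0.94 (SE), adjusted p = 0.00489). In these 3 genes every CD library was at or under 3.59 CPM. Cyp4g1, the oenocyte P450 that completes the synthesis of cuticular hydrocarbons, was also held, at 3509, 2139, 3486 and 3183 CPM at HSD Early, against 1062, 950, 737 and 1249 CPM on CD (log2 fold change 1.62 ± 0.24 (SE), adjusted p = 0.00357).

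**Figure D5:**
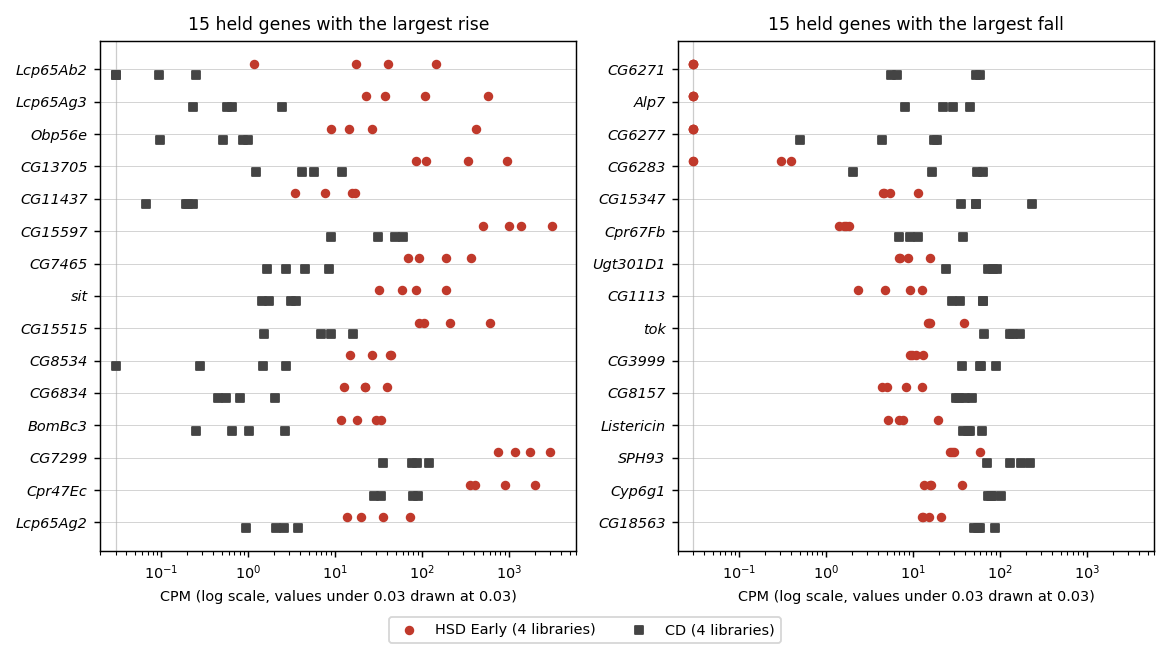
CPM in each of the 4 HSD Early libraries (red circles) and 4 CD libraries (dark squares) on a log x axis for the 15 held genes with the largest rise (left) and the 15 with the largest fall (right), with values under 0.03 CPM drawn at 0.03. In every one of the 30 genes the groups do not overlap, which the rule for held genes requires, and CG6271, Alp7 and CG6277 have 0 counts in all Early libraries.

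Several of the other large held rises belong to genes known by number only. CG15597 was at 3141, 507, 1000 and 1396 CPM at HSD Early, against 48.7, 9.1, 31 and 59.9 CPM on CD (log2 fold change 5.35 ± 0.79 (SE), adjusted p = 0.00382). CG7299 was at 3011, 757, 1177 and 1749 CPM at HSD Early, against 89, 35.8, 76.8 and 122 CPM on CD (log2 fold change 4.37 ± 0.77 (SE), adjusted p = 0.00691). CG13705 was at 84.9 to 961 CPM at HSD Early, against 1.23 to 12.1 CPM on CD, CG7465 at 68.6 to 365 CPM at HSD Early, against 1.65 to 8.55 CPM on CD, and CG15515 at 92.2 to 600 CPM at HSD Early, against 1.51 to 16.3 CPM on CD. In all 5 genes Early 1 was the highest and Early 2 the lowest of the Early libraries. CG6834 was at 39.5, 12.7, 21.9 and 22.3 CPM at HSD Early, against 0.455, 0.566, 2.02 and 0.814 CPM on CD (log2 fold change 4.69 ± 0.65 (SE), adjusted p = 0.00309). The odorant-binding protein gene Obp56e was at 420, 14.6, 8.92 and 26.9 CPM at HSD Early, against 1.01, 0.519, 0.0963 and 0.881 CPM on CD, with Early 1 far above the rest (log2 fold change 7.47 ± 1.37 (SE), adjusted p = 0.00744). Early 1 held 89.3% of its summed Early level, and without Early 1 its log2 fold change was 4.72. Obp83g, of the same family, was at 141 to 474 CPM at HSD Early, against 19.4 to 48.5 CPM on CD, and was held too.

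Cytochrome P450 genes moved in both directions. Of 74 genes 13 rose and 3 fell (21.6% called), with a median of 0.59, and 6 were held. Cyp4e3 was at 438, 228, 228 and 237 CPM at HSD Early, against 30.1, 14.9, 19.8 and 18.9 CPM on CD. Early 2, 3 and 4 were nearly equal, every CD library was far below them, and the gene was 13.5-fold higher (log2 fold change 3.76 ± 0.59 (SE), adjusted p = 0.00468). It was the single gene that met the held rule when the model was fitted to the 8 libraries alone. Cyp4d20 was at 9.93 to 27 CPM at HSD Early, against 1.93 to 5.56 CPM on CD (log2 fold change 2.50 ± 0.46 (SE), adjusted p = 0.00801). Cyp6g1, known for its role in insecticide resistance, moved the other way at 15.6, 36.5, 16 and 13.6 CPM at HSD Early, against 80.9, 73.9, 102 and 79.9 CPM on CD. It was 4.11-fold lower (log2 fold change −2.04 ± 0.40 (SE), adjusted p = 0.00938), with Early 2 above the other Early libraries. Cyp12d1-p was also lower and held, at 3.15 to 3.63 CPM at HSD Early, against 9.21 to 17.7 CPM on CD, though the near-identical neighbour Cyp12d1-d makes its reads uncertain. Of 31 glutathione S-transferases 5 passed (16.1%, against 9.14% of all genes), all higher. GstE6 was held at 69.7, 27.7, 42.1 and 31.1 CPM at HSD Early, against 12, 14.7, 13 and 17.4 CPM on CD (log2 fold change 1.58 ± 0.28 (SE), adjusted p = 0.00711). Of 23 UDP-glycosyltransferases 4 rose and 1 fell (21.7% called). The fall was that of Ugt301D1, held at 7.07, 8.79, 6.85 and 15.8 CPM at HSD Early, against 24.2, 93.1, 84.1 and 72.3 CPM on CD (log2 fold change −2.83 ± 0.54 (SE), adjusted p = 0.00893). The peroxiredoxin Prx2 was held at 160 to 368 CPM at HSD Early, against 85.5 to 103 CPM on CD (log2 fold change 1.25 ± 0.23 (SE), adjusted p = 0.00813), 1 of 3 rises among 13 redox genes (23.1% called).

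Immune genes gave calls in both directions. Bomanins, short secreted peptides made under Toll signalling, and the Daisho peptides gave 3 rises among 14 genes (21.4%, against 9.14% of all genes). Their median log2 fold change was 1.27. BomT3 was at 35.7, 24.5, 35 and 41.4 CPM at HSD Early, against 0.556, 1.89, 0.77 and 7.05 CPM on CD (log2 fold change 3.73 ± 0.63 (SE), adjusted p = 0.00608) and BomBc3 at 29.5, 11.9, 17.8 and 34.2 CPM at HSD Early, against 0.253, 0.66, 2.7 and 1.02 CPM on CD (log2 fold change 4.38 ± 0.66 (SE), adjusted p = 0.00417). Both were held and no Early value reached down to a CD value. Of 8 classical antimicrobial peptide genes 2 passed (25%), both lower, with a median of −3.10, and DESeq2 called 5, all lower. None passed without Early 1, Early 2, Early 3, CD 2 or CD 3, each left out in turn. With no filter on low counts or with the replicate block none passed either, while 1 passed without Early 4 or CD 4 and 2 without CD 1. The list summed to 1.87 to 7.08 CPM at HSD Early and 15 to 364 CPM on CD. Drsl5, a Drosomycin-like peptide, was at 0.0604, 0.219, 0 and 0.0655 CPM at HSD Early, against 0.0506, 65, 51.2 and 350 CPM on CD. It rested on CD 4, and CD 1 was as low as the Early libraries. Dro was at 0.725, 0.306, 1.03 and 0.983 CPM at HSD Early, against 3.24, 4.2, 3.66 and 3.19 CPM on CD, without overlap (log2 fold change −2.22 ± 0.61 (SE), adjusted p = 0.0366), and was not held. Listericin was at 7.01, 7.66, 5.24 and 19.4 CPM at HSD Early, against 46, 43.1, 37.5 and 61.8 CPM on CD, and was held with a level 4.8-fold lower (log2 fold change −2.26 ± 0.37 (SE), adjusted p = 0.00564). The serine protease homologues SPH93 and CG18563, neighbours on the chromosome, were both held falls. SPH93 was at 27.9, 58.7, 27 and 29.6 CPM at HSD Early, against 132, 174, 222 and 71.5 CPM on CD (log2 fold change −2.06 ± 0.40 (SE), adjusted p = 0.00935). CG18563 was at 15.4, 21, 13 and 12.8 CPM at HSD Early, against 56.9, 59.1, 89 and 50 CPM on CD (log2 fold change −2.03 ± 0.35 (SE), adjusted p = 0.0064). Of 16 serpins 3 passed (18.8%), all higher. Spn47C was held at 151, 61.9, 153 and 75.4 CPM at HSD Early, against 14.3, 13.9, 15.6 and 22.8 CPM on CD (log2 fold change 2.73 ± 0.50 (SE), adjusted p = 0.00789). Of 9 peptidoglycan recognition genes 2 rose (PGRP-LA and PGRP-LB) and 2 fell (PGRP-SA and PGRP-SC2), 44.4% in all, and none was held. Among haemocyte markers 1 of 9 fell, PPO3 (11.1%, close to the 9.14% over all genes).

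The largest held falls were those of lipases and a phosphatase. CG6271, a lipase of the pancreatic type, was at 0, 0, 0 and 0 CPM at HSD Early, against 5.56, 59.9, 53.2 and 6.58 CPM on CD. With 0 counts in all Early libraries and 2029 counts on CD it was at least 718-fold lower, against the limit of 3 counts over the group. CG6277, its neighbour in the same gene cluster, was at 0, 0, 0 and 0 CPM at HSD Early, against 0.506, 17.4, 19.1 and 4.41 CPM on CD, at least 227-fold lower by the same limit. CG6283, also of the cluster, was at 0.302, 0, 0 and 0.393 CPM at HSD Early, against 2.07, 63.8, 54.9 and 16.7 CPM on CD (log2 fold change −7.65 ± 1.35 (SE), adjusted p = 0.00698). In all 3 genes CD 2 and CD 3 were the highest CD libraries. CG6295, another lipase of the cluster, was at 0, 0, 0 and 0.328 CPM at HSD Early, against 1.57, 23.4, 38.8 and 8.81 CPM on CD, and rested on CD 3. The alkaline phosphatase Alp7 was at 0, 0, 0 and 0 CPM at HSD Early, against 45.2, 22.5, 28.7 and 8.2 CPM on CD, at least 633-fold lower. Glycosidases and lysozymes of the gut had a median log2 fold change of −2.98, with 2 of 19 genes called lower (10.5%, close to the 9.14% over all genes). They summed to 802 to 1197 CPM at HSD Early and 819 to 1140 CPM on CD. Gut proteases gave no call among 26 genes (4 with an unadjusted p under 0.05, and 2 calls by DESeq2) and summed to 57.6 to 2055 CPM at HSD Early and 360 to 1406 CPM on CD. The part of gut tissue in the lipase result was not tested.

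Some matrix proteases were held falls. The tolloid-like protease tok was at 15.3, 38.8, 14.9 and 15.8 CPM at HSD Early, against 66.7, 169, 142 and 132 CPM on CD. Early 2 was above the other 3 Early libraries and still below CD 1, and the gene was 5.99-fold lower (log2 fold change −2.58 ± 0.51 (SE), adjusted p = 0.00955). The matrix metalloproteinase Mmp2 was at 10.9, 29.4, 20.9 and 21.9 CPM at HSD Early, against 51.5, 82.1, 71.8 and 66.2 CPM on CD (log2 fold change −1.71 ± 0.38 (SE), adjusted p = 0.0143). In a group of tolloid-type and matrix proteases and their inhibitor put together after the values were seen, 3 of 7 tested genes fell (tok, tld and Mmp2), AdamTS-B rose (log2 fold change 1.27, adjusted p = 0.0318) and Mmp1, stl and Timp did not pass. Nidogen (Ndg), a basement membrane protein, was held in the other direction at 227, 146, 273 and 172 CPM at HSD Early, against 101, 64.6, 50.4 and 77.1 CPM on CD (log2 fold change 1.48 ± 0.26 (SE), adjusted p = 0.00682). Mmp2 and Ndg were the calls among 11 matrix genes (18.2%, against 9.14% of all genes). CG1113, CG8157 and CG15347, with no role given here, were the remaining large held falls, at 2.36 to 12.7 CPM at HSD Early, against 28 to 64.5 CPM on CD, at 4.39 to 12.7 CPM at HSD Early, against 31 to 47.4 CPM on CD, and at 4.51 to 11.5 CPM at HSD Early, against 35.6 to 235 CPM on CD.

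In amino acid metabolism, 3 of 6 genes of the breakdown of aromatic amino acids rose (50%, against 9.14% of all genes). Faa, fumarylacetoacetase, the last step of tyrosine breakdown, was at 121, 51.3, 117 and 69.9 CPM at HSD Early, against 7.08, 5.57, 13.5 and 17.1 CPM on CD, and was held at 8.36-fold (log2 fold change 3.06 ± 0.52 (SE), adjusted p = 0.00608). Hn, phenylalanine hydroxylase, and Tat, tyrosine aminotransferase, rose by 1.06 and 1.04 on the log2 scale. In serine, glycine and folate metabolism 2 of 7 genes fell (28.6%). Shmt, serine hydroxymethyltransferase, was at 160, 200, 126 and 180 CPM at HSD Early, against 253, 338, 458 and 289 CPM on CD (log2 fold change −1.01 ± 0.20 (SE), adjusted p = 0.00938). CG6287, phosphoglycerate dehydrogenase, also fell (−1.55). CG3999, which is not in that list and is named for the size of its fall, encodes the decarboxylating subunit of the glycine cleavage system and was held at 11, 13, 9.18 and 9.83 CPM at HSD Early, against 59.4, 60.9, 90.2 and 37.2 CPM on CD. It was 5.75-fold lower (log2 fold change −2.52 ± 0.51 (SE), adjusted p = 0.0101). In proline metabolism Oat fell (−0.96) and P5CDh1 rose (0.69), 2 calls in 7 genes (28.6%), neither held. Among 19 amino acid transporters only CG4991, of the SLC36 family, passed (5.26%, under the 9.14% over all genes). It was held at 16.5, 7.92, 11.3 and 10.6 CPM at HSD Early, against 3.24, 2.59, 2.12 and 3.93 CPM on CD (log2 fold change 1.96 ± 0.39 (SE), adjusted p = 0.00967).

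Of 5 sugar sensing genes 1 rose and 1 fell (40% called). sug, a transcription factor induced by dietary sugar in larvae, was held at 8.76, 4.73, 7.37 and 3.67 CPM at HSD Early, against 1.52, 1.32, 0.482 and 1.76 CPM on CD, and was 4.75-fold higher (log2 fold change 2.25 ± 0.45 (SE), adjusted p = 0.00967). tobi, an alpha-glucosidase gene under insulin-like control, fell (−1.85) and was not held. Of 17 ecdysone response genes 2 rose and 2 fell (23.5%, against 9.14% of all genes). An unadjusted p under 0.05 was found for 12 of the 17, and DESeq2 called 9, of which 6 were lower and 3 higher. The nuclear receptor gene ftz-f1 was held at 46.2, 37.5, 52.9 and 33.1 CPM at HSD Early, against 24.4, 20.4, 12.5 and 27.3 CPM on CD (log2 fold change 1.00 ± 0.21 (SE), adjusted p = 0.0116). Hr38 rose at 57.2, 15.8, 28.7 and 31.5 CPM at HSD Early, against 8.85, 2.59, 2.5 and 3.59 CPM on CD (log2 fold change 2.91 ± 0.70 (SE), adjusted p = 0.0205). Eip93F and Eip78C fell, the second at 0.906, 2.23, 1.81 and 3.74 CPM at HSD Early, against 3.69, 100, 36.8 and 223 CPM on CD, with CD 1 at the level of the Early libraries. daw, an activin-like ligand, rose at 41.1 to 60.6 CPM at HSD Early, against 22.4 to 29.2 CPM on CD (log2 fold change 0.96 ± 0.26 (SE), adjusted p = 0.0324). It was 1 of 14 growth factor ligand and receptor genes (7.14%, under the 9.14% over all genes).

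The other lists gave between 1 and 5 calls each, and 9.14% of all genes were called. In methionine and cysteine metabolism Cbs and Sam-S rose, 2 of 8 genes (25%), and among glutamate enzymes and transaminases Got2 and Gdh, 2 of 6 (33.3%). The proton pump subunit Vha100-2 (1 of 26), the juvenile hormone epoxide hydrolase Jheh3 (1 of 6) and vvl, a transcription factor of the trachea and epidermis (1 of 6), rose as well. The sterol carrier Npc2a fell, 1 of 9 lipid transport genes, and the thioester protein Tep1 fell, 1 of 7 Turandot and thioester genes. Odorant-binding and Osiris genes gave 3 rises and 2 falls among 23 (21.7%), and DESeq2 called 10. Among the calls in these lists those of Obp56e and Obp83g were held, and the others were not.

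Of the 69 lists, 20 gave no call. Their 201 tested genes included 35 with an unadjusted p under 0.05, and DESeq2 called 20 of them, 15 lower and 5 higher. They covered the insulin and TOR pathway (13 genes), ERK targets (11), FGF signalling (5), myogenic factors (8), actomyosin (10), the unfolded protein and integrated stress responses (14), replication (16), trehalose (4), the polyol and pentose pathways (6), lipid storage and lipolysis (6), beta-oxidation (7), sterol binding in the gut (6), gut proteases (26), Tweedle cuticle proteins (9), tanning (6) and the dosage compensation RNAs (2), and markers of fat body, neurons and glia, eye disc and tumour, and testis. The insulin-binding protein gene ImpL2 was at 93.2, 206, 141 and 182 CPM at HSD Early, against 145, 165, 158 and 122 CPM on CD. Thor, a translational repressor held down by insulin signalling, was at 1054, 1296, 1713 and 1465 CPM at HSD Early, against 1074, 939, 960 and 1800 CPM on CD, and in both genes the groups overlapped. The FGF ligand gene pyr was at 42.1, 44.2, 78.8 and 40.1 CPM at HSD Early, against 31.2, 29.9, 15.8 and 38.6 CPM on CD, and htl, which encodes its receptor, was at 19.7, 26.1, 31.4 and 24.3 CPM at HSD Early, against 31.6, 28.2, 22.8 and 36.3 CPM on CD. Act5C, a cytoplasmic actin, was at 2410, 2848, 2345 and 3066 CPM at HSD Early, against 3085, 3670, 3706 and 3176 CPM on CD. Every Early library was below every CD library for Act5C, with an adjusted p of 0.292. Hsl, the hormone-sensitive lipase, was at 56.4 to 89.6 CPM at HSD Early, against 37.9 to 63.1 CPM on CD, and Treh, trehalase, at 80.5 to 185 CPM at HSD Early, against 202 to 261 CPM on CD.

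Genes that rested on 1 library included some of the largest rises and falls. ng3, a salivary glue gene, was at 0.544, 199, 0 and 25.6 CPM at HSD Early, against 0, 0.0472, 0 and 0.0678 CPM on CD. Early 2 held 88.4% of the Early total, Early 3 was at 0, and with 2 counts on CD the ratio of summed levels was 2335 (95% Poisson interval 646 to 19278, counting error only). The call for ng3 was lost not only without Early 2 (adjusted p = 0.0656). It was also lost without Early 1 (0.0575), without Early 4 (0.0554) and without any 1 CD library (0.073 to 0.109). CG13947 and lcs, whose Early levels were also highest in Early 2, were at 0.242, 237, 0 and 57.7 CPM at HSD Early, against 0.303, 0.0472, 0 and 0.271 CPM on CD, and at 0.242, 180, 0.388 and 19.8 CPM at HSD Early, against 0.506, 0.0943, 0 and 0.542 CPM on CD. These libraries are those with high levels of other glue genes and of testis markers. CG11350 was at 5022, 686, 801 and 2026 CPM at HSD Early, against 88.3, 2.78, 12.6 and 54.5 CPM on CD. Here Early 1 held 58.8% of the Early total but all Early libraries stood above CD, so that the gene met the rule through its lost call (adjusted p = 0.0214 with all libraries and 0.067 without Early 1). Among the falls, CG34193 was at 0.302, 0.875, 0 and 0.262 CPM at HSD Early, against 0.303, 159, 27 and 683 CPM on CD, and rested on CD 4, as did Drsl5. Lcp3, a larval cuticle gene outside the rule for named genes and chosen after its values were seen, was at 74666, 7300, 11014 and 17405 CPM at HSD Early, against 1377, 971, 417 and 1765 CPM on CD, and Early 1 held 67.6% of its Early total.

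The other HSD stages, day 14 (Mid) and day 16 (Late), share the Early libraries in any contrast with Early. The genes given here were chosen by their Early levels, so their levels at the other stages are a description. Cpr47Ec, at 354 to 2022 CPM at HSD Early, against 28.2 to 89.6 CPM on CD, was measured at 17.6, 3.23, 62 and 30.1 CPM at Mid and 19.5, 13.1, 6.25 and 10.1 CPM at Late. No Mid or Late library was above the highest CD library, and all were below the Early libraries. Cyp4e3 was measured at 1052, 320, 282 and 394 CPM at Mid and 1566, 876, 2942 and 417 CPM at Late. All of these values were above every CD library. Alp7 stayed near 0, at 0.0441, 0, 0 and 0.0356 CPM at Mid and 0.434, 0, 0 and 0 CPM at Late. SPH93 was at 79.8, 105, 43.4 and 114 CPM at Mid and 394, 319, 196 and 191 CPM at Late, so that its Late libraries were all above its Early libraries.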

How the data were processed

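RNA from pooled dissected body-wall muscle was sequenced in 16 libraries, 4 each for CD and for the Early, Mid and Late stages of HSD. The deposited values are raw counts per gene, which the authors made from a stranded mRNA kit. The authors trimmed reads with Trim Galore, and the submitters' processing notes name CASAVA 1.8.4, TopHat2 2.0.11, featureCounts and the dm3 build. The strand setting of the counting is not given in the sources used here, so reads of a gene and of an overlapping antisense gene may not be separable. Symbols were matched for 15002 of 15682 identifiers, from an annotation of a later build.

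Counts were analysed in R 4.3.3 with edgeR 4.0.16. Genes were filtered with filterByExpr (minimum count 10, minimum total 15), libraries were scaled by TMM, and the quasi-likelihood fit took in all 16 libraries as 4 conditions, so that every group informs the estimate of the spread. P-values were adjusted by the Benjamini-Hochberg method over 11607 genes, at a threshold of 0.05. CPM values use TMM-scaled library sizes, and per-library values are given in replicate order. The fits were repeated without each Early and each CD library. Where all libraries of a group had 0 counts, folds are bounds against 3 counts over the group. Intervals cover counting error only. The code was tested on simulated counts with much less spread between libraries than these data have. That test checks the code and gives no error rate for these data. No unmapped column was used, and no library was a copy of another. Depth was 9666672 to 28698585 counts, and the spread between libraries gave a common biological coefficient of variation of 0.613. Whether depth or this spread limited precision more was not tested.

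Replicate numbers are shared between groups. The correlation of residuals of Early and CD libraries with the same number was −0.321, 0.223, −0.0994 and −0.43 for numbers 1 to 4, and they were therefore not used as pairs. Alternatives were other scalings, other filters, DESeq2 1.42.0, a replicate block, the 8 libraries alone and each library left out.

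The genes named with values are the 15 top held rises and the 15 top held falls by log2 fold change among genes with a symbol and a mean of at least 10 CPM in the higher group, the 8 genes with the largest change that rest on 1 library, and from each of 69 lists up to 4 called genes with the smallest adjusted p or, without a call, up to 2 with the highest level. Of 1461 symbols in the lists 1429 were in the table and 1212 were tested. The gene lists and the comparison were chosen with earlier results of these data known.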

Additional observations from a re-analysis of the deposited data

Results flagged for a closer look

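In 218 groups of 4 libraries (list medians and named genes), 1 library lay far from the other 3 in 14, by the gap to its nearest neighbour as a share of the group's range. Chance marks about 1 in 20 such groups. Among list medians at HSD Early, Early 1 was far above the rest for the TCA cycle (0.876 of the range) and translation factors (0.882) and far below for the dosage compensation RNAs (0.908), and Early 4 was far above for nucleolar genes (0.857) and for gut glycosidases and lysozymes (0.831). Among CD list medians, CD 1 was far below for sugar sensing (0.893) and far above for nucleolar genes (0.850) and replication (0.875), and CD 3 was far below for Tweedle (0.880) and FGF genes (0.957). Among single genes at HSD Early, Early 4 was the far value for CG6295 (1.000, with the other 3 libraries at 0), and Early 2 for Cyp6g1 (0.837), SPH93 (0.879) and tok (0.942).

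For 38 genes, the 30 held genes and the 8 that rested on 1 library, Mid and Late were each tested against Early with edgeR's quasi-likelihood test, both with the same Early libraries. These genes were chosen for their high or low Early levels, which by itself favours a difference from Early towards CD, so the values below are a description and support nothing. Over all genes tested, 1.82% were lower and 0.276% higher at Mid than at Early, and 10.1% were lower and 10.1% higher at Late. At Mid 10 held rises and 2 rises that rested on 1 library were lower than at Early. The log2 differences of Mid minus Early were −6.76 for CG11350, −6.45 for CG13705, −5.59 for CG15515, −3.48 for CG15597, −4.43 for CG7465, −5.02 for Cpr47Ec, −8.53 for Cpr47Eg, −3.46 for Lcp65Ag2, −6.21 for Lcp65Ag3, −5.86 for Obp56e and −2.74 for sit. Lcp65Ab2 had 0 counts in all Mid and Late libraries, so that its fitted differences of −13.16 at both stages are not bounds.

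At Late 12 held rises and 5 rises that rested on 1 library were lower than at Early. Late minus Early was −7.33 for CG11350, −5.50 for CG13705, −8.99 for CG13947, −7.10 for CG15515, −4.58 for CG15597, −4.15 for CG7299, −4.81 for CG7465, −3.02 for CG8534, −6.23 for Cpr47Ec, −8.35 for Cpr47Eg, −4.78 for Lcp65Ag2, −7.44 for Lcp65Ag3, −5.78 for Obp56e, −6.91 for lcs, −7.04 for ng3 and −2.61 for sit. In the other direction 6 held falls were higher at Late than at Early, with 2.06 for CG18563, 2.03 for Cpr67Fb, 1.77 for Cyp6g1, 1.41 for Listericin, 2.94 for SPH93 and 2.06 for tok.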

How the results depend on the processing

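No named gene with a call changed sign under any alternative. The 2 other scalings (DESeq2's size factors and upper-quartile factors), the fit with no filter on low counts and the fit without the 20 most abundant genes gave between 790 and 1083 calls, within 1.5 times of 1061. The share of rises was 70.5% in the comparison as reported, 63.8% with DESeq2's size factors and 60.8% with upper-quartile factors. With only genes at a mean of at least 10 CPM, the falls numbered 503 and the held genes 463. DESeq2's Wald test called 1893 genes (59.2% higher, 773 lower) and 872 held genes, and gave no adjusted p for 1153. The 8 libraries alone gave 445 calls, 260 higher and 185 lower, with 1 held gene (Cyp4e3). Leaving out 1 library gave between 281 and 1131 calls, between 184 and 774 rises, between 97 and 357 falls and, for the CD libraries, between 36 and 357 held genes. Without Early 1 and CD 4 together, an alternative chosen after seeing the data, 375 genes passed, 280 higher and 95 lower. With the replicate block 902 genes passed, 667 higher and 235 lower, and 197 were held. Where a count moved, the cause was not tested, except that fits with fewer libraries have less power. The part of sequencing depth in the calls was not tested.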

Other observations

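Some gene groups were put together after their values were seen, and their counts are descriptions. Over all genes tested 9.14% were called. Very long chain fatty acid elongases, which lengthen fatty acids for waxes and sphingolipids, gave 10 rises among 16 tested genes, with a median log2 fold change of 1.86 against −0.01 over all genes, and 7 of the 10 were held. CG9459 averaged 11 CPM at HSD Early and 0.919 CPM on CD (log2 fold change 3.57, adjusted p = 0.00208), and CG18609 averaged 62.9 CPM at HSD Early and 6.02 CPM on CD (3.38, adjusted p = 0.00309). The 6 members without a call included CG6660, at 81.6 CPM at HSD Early and 120 CPM on CD. eloF had 2 counts on CD in all, with a ratio of summed levels of 48.5 (95% Poisson interval 13.4 to 401, counting error only).

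Genes that handle ubiquitin beside the proteasome gave 9 falls among 16, with a median of −0.54, and 3 were held. The ubiquitin ligase Ube4B averaged 143 CPM at HSD Early and 502 CPM on CD (log2 fold change −1.82, adjusted p = 0.00955). The giant peptidase TppII averaged 300 CPM at HSD Early and 492 CPM on CD (−0.71, adjusted p = 0.0125), and the aminopeptidase Psa averaged 134 CPM at HSD Early and 272 CPM on CD (−1.02, adjusted p = 0.00682). The ubiquitin-activating enzyme Uba1 did not pass, at 613 CPM at HSD Early and 604 CPM on CD.

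In the synthesis of purines 3 of 7 genes fell. Gart, an enzyme with several activities in the early pathway, was held, at 65.4 CPM at HSD Early and 248 CPM on CD (−1.92, adjusted p = 0.00208), and Prat2 fell to 9.2 CPM at HSD Early, against 63.1 CPM on CD. Of 19 genes of mitochondrial import and carriers 6 rose, of which Mpcp2, a phosphate carrier, and Mitofilin were held. tld, a neighbour and relative of tok, was held at 3.8 CPM at HSD Early and 15.3 CPM on CD.

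Of 255 held genes with a place in the annotation of a later build, 31 lay in 15 runs of neighbouring tested genes that moved in 1 direction, 11 higher and 4 lower. The runs included sit with CG33110, CG8534 with eloF and CG9459 with CG9458, all elongases, BomT3 with BomBc3, and among the falls the lipases CG6283, CG6277 and CG6271, Alp7 with Alp8, and tok with tld. No expectation for such runs was computed.

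CG14664, chosen after its values were seen, had 1 count in all at HSD Early and 9176 on CD (ratio of summed levels 9735, 95% Poisson interval 1747 to 384524, counting error only). On CD it was at 0.202, 148, 77.2 and 354 CPM, so CD 1 was near the Early libraries, and it was not held.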
